A study of Homo sapiens with 18 samples.

Results

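Osteoblasts, the cells that lay down bone, are identified by a small set of lineage genes, and 9 of these were followed here in an osteosarcoma cell line: RUNX2, SP7, DLX5, ALPL, SPARC, SPP1, IBSP, BGLAP and TNFRSF11B. They were taken by symbol, with no threshold on their values, and all 9 were present among 23368 gene rows. SJSA-1 cells (SJSA) derive from an osteosarcoma and are known for amplification of MDM2 and CDK4. RNA was sequenced from 18 libraries in 6 groups of 3 biological replicates, all from this one line in DMEM with 10% serum. The solvent group is DMSO. The Nutlin group received 20 µM of the MDM2 antagonist Nutlin for 6 h, according to the labels. A supplementary scheme of the study that also gives a lower Nutlin dose belongs to blots of other cell lines. PD24 and PD30 received 10 µM PD0332991 (Palbociclib), a CDK4/6 inhibitor, for 24 h or 30 h. N+PD24 and N+PD30 combined Nutlin with these schedules, and in the 24 h schedules PD0332991 was no longer present during the Nutlin period.

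In bone, RUNX2 is the transcription factor that commits mesenchymal precursors to the osteoblast fate, SP7 (osterix) acts after it, and DLX5 is a homeodomain factor that promotes the same programme. ALPL, tissue-nonspecific alkaline phosphatase, frees phosphate for mineral deposition. SPARC (osteonectin), SPP1 (osteopontin), IBSP (bone sialoprotein) and BGLAP (osteocalcin) are secreted proteins of the bone matrix, with BGLAP typical of late, mineralizing osteoblasts. TNFRSF11B (osteoprotegerin) is a secreted decoy receptor by which osteoblasts restrain the formation of osteoclasts.

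Of the secreted matrix proteins, SPP1 was read in every library whereas BGLAP and IBSP were at or near 0. The 250 bases before the annotated start of these genes are shown to set their sequences beside these levels. They were taken from RefSeq on GRCh38.p14, in the direction of transcription, and 6 of the 9 genes had an entry. SP7, DLX5 and TNFRSF11B had none. Capitals mark the letters of a RUNX core (TGTGGT or ACCACA) or a TATA element (TATAAA or TTTATA), searched on both strands. A homeobox core (TAATTA) was searched as well and was not found in these windows.
SPP1, chr4:87975464-87975713, plus strand: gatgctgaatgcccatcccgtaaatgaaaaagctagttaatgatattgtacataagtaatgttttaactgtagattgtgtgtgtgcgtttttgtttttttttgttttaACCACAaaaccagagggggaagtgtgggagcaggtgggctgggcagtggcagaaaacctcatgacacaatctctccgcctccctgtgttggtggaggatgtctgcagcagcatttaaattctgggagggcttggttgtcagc
BGLAP, chr1:156241934-156242183, plus strand: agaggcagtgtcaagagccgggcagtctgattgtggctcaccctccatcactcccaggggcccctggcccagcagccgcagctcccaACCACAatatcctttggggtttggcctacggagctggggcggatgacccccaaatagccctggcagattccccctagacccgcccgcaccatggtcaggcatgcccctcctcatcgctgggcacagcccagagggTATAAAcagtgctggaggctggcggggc
IBSP, chr4:87799304-87799553, plus strand: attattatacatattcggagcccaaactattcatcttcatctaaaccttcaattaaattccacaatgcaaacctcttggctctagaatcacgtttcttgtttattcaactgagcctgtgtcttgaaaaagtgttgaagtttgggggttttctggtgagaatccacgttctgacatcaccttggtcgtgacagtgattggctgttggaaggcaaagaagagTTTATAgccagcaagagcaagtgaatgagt

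The RUNX core letters stood 142 bases before the SPP1 start and 163 bases before the BGLAP start, with no match in the IBSP window. The TATA letters stood 28 bases before the BGLAP start and 30 bases before the IBSP start. RUNX2 had 2 promoter entries, and the upstream one held the RUNX core letters at 191 and 87 bases before the start. Neither the SPARC window nor 2 of the 3 ALPL windows held any of these motifs, and the remaining ALPL window held TATA letters 29 bases before the start. Over all 35116 RefSeq promoters of this length, 11% held the RUNX core, 10.7% the TATA element and 4.35% the homeobox core. These matches are descriptions of letters and not of bound sites.

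Levels are given as CPM, the count of a gene scaled to the total count of its library. Library totals ranged from 12704845 to 40231041 counts, and the lowest was that of N+PD30 replicate 1. The conditions could be read from known response genes. CDKN1A, the p53 target that encodes p21, was at 184 ± 38.0 CPM in DMSO and at 3984 ± 146 CPM with Nutlin (SD, n = 3), and MDM2 was at 2589 ± 79.7 and 22914 ± 4589 CPM. CCNA2 (cyclin A2) was at 216 ± 2.32 CPM in DMSO against 3.09 ± 0.474 CPM in PD24 and 4.51 ± 0.731 CPM in PD30. MKI67, the proliferation marker Ki-67, was at 684 ± 62.1 CPM in DMSO, 261 ± 53 CPM with Nutlin, 3.86 ± 0.696 CPM in PD24 and 5.23 ± 1.2 CPM in PD30. The part that the loss of cycling played in the values below was not tested.

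Levels of different genes were compared per kilobase of the main transcript. SPARC stood far above the others, with 405 to 841 CPM per kb over the 18 libraries. ALPL ranged from 4.19 to 44, SPP1 from 3.65 to 35.6, RUNX2 from 3.28 to 6.23, TNFRSF11B from 1.2 to 3.51 and DLX5 from 0.347 to 7.19 CPM per kb. SP7, BGLAP and IBSP reached at most 0.0780, 0.437 and 0.0833 CPM per kb. Of the 9 osteoblast lineage markers, 6 had a median of at least 1 CPM, while the transcription factor SP7 and the mineralization markers BGLAP and IBSP were at or near 0. In bulk RNA, fewer expressing cells and less RNA per cell cannot be told apart.

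**Figure D1:**
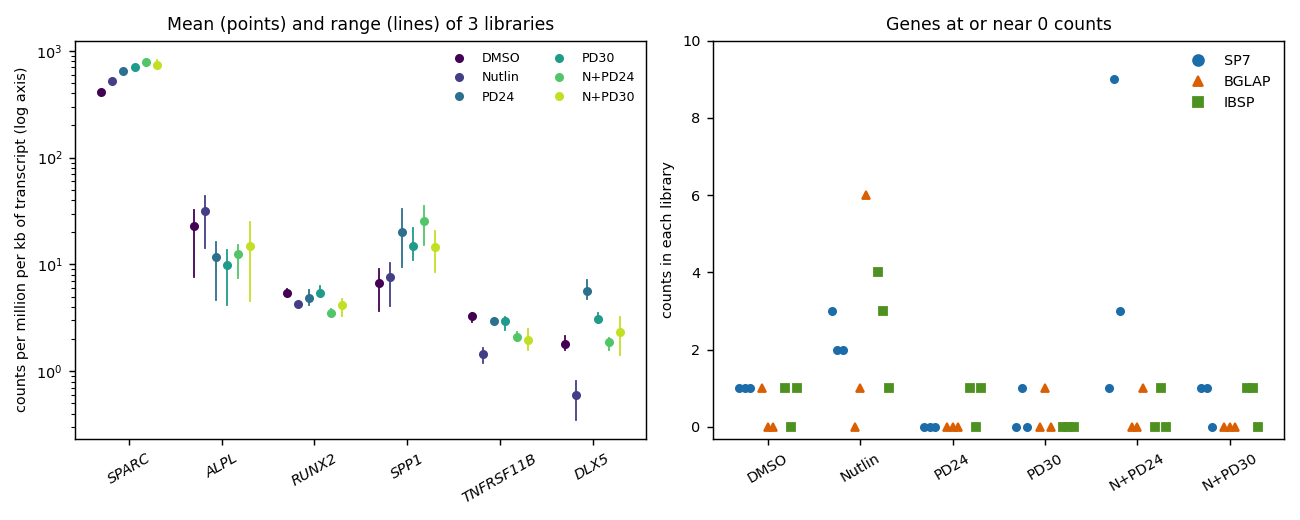
Left, CPM per kb of transcript on a log axis for 6 genes, with points for the mean and lines for the range of 3 libraries in each of 6 groups. Right, raw counts of SP7, BGLAP and IBSP in each of the 18 libraries. SPARC lies at 405 to 841 CPM per kb, and no library holds more than 9 counts of SP7, 6 of BGLAP or 4 of IBSP.

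The next question was how many of the 9 genes responded to each treatment. A gene was called where its Benjamini-Hochberg adjusted p over all genes tested was below 0.05, by edgeR's quasi-likelihood test or, in comparisons with N+PD24, by limma. The filters on low values left 6 of the 9 genes, and SP7, BGLAP and IBSP were not tested. Values from limma are differences of log2(CPM + 1), which understate the fold of genes at a few CPM. Nutlin against DMSO called 3 (SPARC higher, DLX5 and TNFRSF11B lower), where 54.6% of all genes tested were called. PD24 against DMSO called 3 (SPP1, SPARC and DLX5, all higher), with 38.3% of all genes called. PD30 against DMSO called the same 3 in the same direction, with 48.3% of all genes called.

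In the combinations, N+PD30 against Nutlin called 3 (SPP1, SPARC and DLX5, all higher) beside 49% of all genes. N+PD24 against Nutlin called 4 (SPP1, SPARC and DLX5 higher, ALPL lower) beside 35.3% of all genes. N+PD24 against PD24 called 2 (DLX5 and TNFRSF11B lower) beside 38.4% of all genes. N+PD30 against PD30 called 0 beside 14.5% of all genes, with 1 of the 6 below an unadjusted p of 0.05 in edgeR and 0 called by DESeq2. PD30 against PD24 called 1 (DLX5 lower) beside 25.2% of all genes. N+PD30 against N+PD24 called 0 beside 33.3% of all genes, with 1 of the 6 below an unadjusted p of 0.05 in limma and 0 called by edgeR on the recovered reads. In 4 of these comparisons same-numbered libraries deviated together, least clearly in N+PD30 against PD30. A fit with the replicate number as a block called 6 in N+PD24 against Nutlin, 5 in N+PD24 against PD24, 1 in N+PD30 against PD30 and 1 in PD30 against PD24. The shares of the tested genes that were called thus lay on either side of the background, and these comparisons share groups, so they are not independent of each other.

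**Figure D2:**
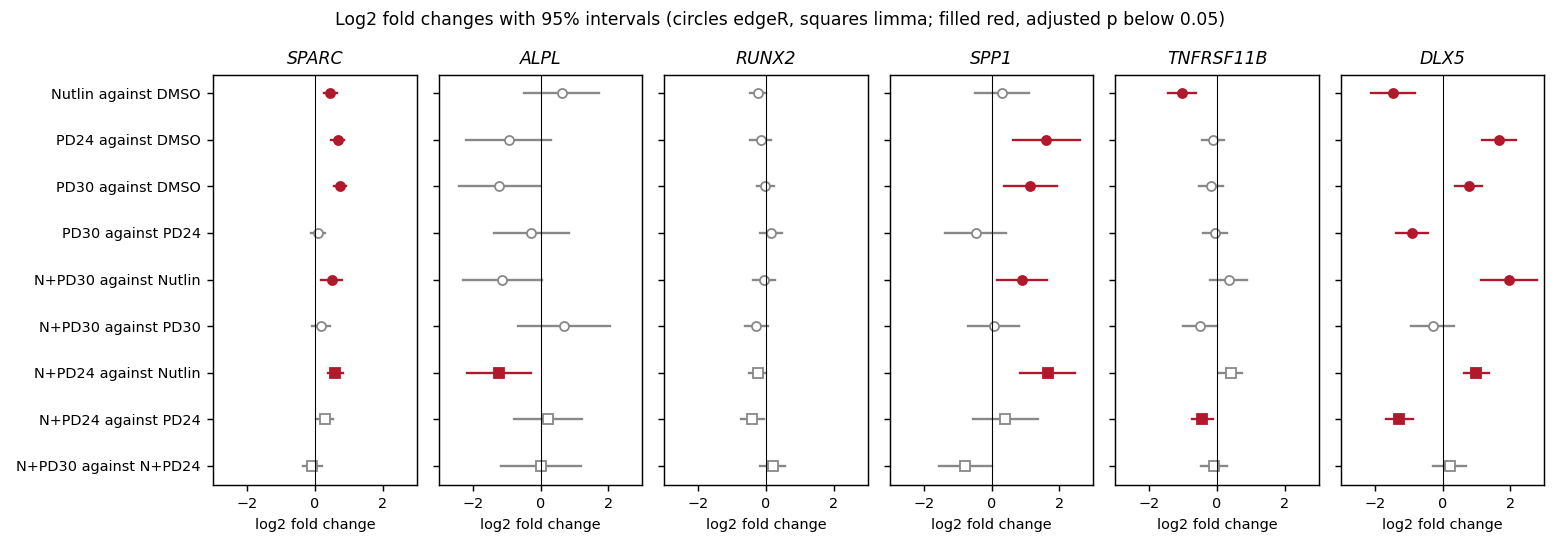
Log2 fold changes, for limma differences of log2(CPM + 1) (x axes), with 95% intervals for 6 genes in 9 comparisons of groups (rows), with circles for edgeR and squares for limma. Filled red symbols mark an adjusted p below 0.05. SPARC, SPP1 and DLX5 lie to the right of 0 in the 4 comparisons of PD0332991 with its absence, and DLX5 and TNFRSF11B to the left in Nutlin against DMSO and in N+PD24 against PD24.

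Among the transcription factors, DLX5 (chr7:96649708-96654262 on GRCh37, minus strand, 3 exons) moved with both drugs and in opposite directions. Its level was 3.03, 2.39 and 2.26 CPM in the DMSO libraries and 0.492, 0.933 and 1.14 CPM with Nutlin. The Nutlin libraries all lay below the DMSO libraries, and the log2 fold change was -1.47 ± 0.29 (SE, edgeR adjusted p = 0.0018, n = 3 per group). In PD24 the libraries were at 7.06, 10.2 and 6.76 CPM, all above DMSO, a log2 fold change of 1.66 ± 0.22 (edgeR adjusted p = 0.00053). PD30 gave 4.0, 4.98 and 4.26 CPM, again above DMSO but below every PD24 library.

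The log2 fold change of DLX5 in PD30 against DMSO was 0.77 ± 0.18 (edgeR adjusted p = 0.0065). PD30 against PD24 gave -0.89 ± 0.21 (edgeR adjusted p = 0.014), and this call was lost without PD30 replicate 1 or PD30 replicate 3 (edgeR adjusted p = 0.051 for each). These 2 schedules differ in how long PD0332991 was present, 24 or 30 h, and in whether it was still there at the end.

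With both drugs, the mean CPM of DLX5 lay between those of the single treatments, and the N+PD30 libraries overlapped those of PD30. N+PD24 gave 2.91, 2.87 and 2.24 CPM, within or near the DMSO range, and N+PD30 gave 3.46, 4.54 and 2.03 CPM. Against PD24, N+PD24 gave a log2(CPM + 1) difference of -1.28 ± 0.18 (limma adjusted p = 0.00067), and each N+PD24 library had 0.281 to 0.412 of the CPM of the same-numbered PD24 library. Against Nutlin, N+PD24 was higher by 1.00 ± 0.16 on this scale (limma adjusted p = 0.0021). At this low level edgeR on the recovered reads gave larger log2 fold changes, -1.43 against PD24 (edgeR adjusted p = 0.00070) and 1.72 against Nutlin (edgeR adjusted p = 0.0020).

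N+PD30 against Nutlin gave the largest change of DLX5, a log2 fold change of 1.95 ± 0.37 (edgeR adjusted p = 0.0014). N+PD30 against PD30 gave -0.29, with a 95% interval from -0.93 to 0.35 (edgeR adjusted p = 0.50). The difference between the effects of Nutlin with PD30 and without it was tested as an interaction over 12 libraries. It was 1.22 ± 0.43 for DLX5 (edgeR adjusted p = 0.063) and was not called, and it passed without Nutlin replicate 3 (edgeR adjusted p = 0.047) or N+PD30 replicate 3 (edgeR adjusted p = 0.013). With PD24 in place of PD30 the interaction was -0.33 ± 0.25 (limma adjusted p = 0.67).

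Over all genes, 19.8% were called in the interaction with PD30 and 1.5% in that with PD24. Of the 6 tested lineage genes, 0 were called in either, with 1 below an unadjusted p of 0.05 in each. DESeq2 called 0 for PD30, and edgeR on the recovered reads called 0 for PD24. With PD24, TNFRSF11B was the gene below the unadjusted threshold (0.52 ± 0.18, limma adjusted p = 0.23).

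RUNX2 (chr6:45295894-45632086 on GRCh37, plus strand, 9 exons in the main transcript) varied less than DLX5. Its libraries lay at 28.3 to 32.8 CPM in DMSO, 23.2 to 23.7 CPM with Nutlin, 23.1 to 31.9 CPM in PD24 and 27.8 to 34.5 CPM in PD30. The combinations gave 18.3 to 21.4 CPM in N+PD24 and 18.2 to 26.3 CPM in N+PD30. In the order of group means, from N+PD24 through N+PD30, Nutlin, PD24 and PD30 to DMSO, every pair of neighbours overlapped.

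The Nutlin libraries lay below the DMSO libraries for RUNX2 with a log2 fold change of -0.24 (95% interval -0.47 to -0.00, edgeR adjusted p = 0.079). This comparison depended on the scaling of the libraries. Scaling by total counts shifted the median of all genes by -0.13 on the log2 scale, and gave -0.36 for RUNX2 (edgeR adjusted p = 0.014). Neither PD24 (log2 fold change -0.16, 95% interval -0.46 to 0.14) nor PD30 (-0.02, -0.28 to 0.23) differed from DMSO at the threshold.

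N+PD24 lay below PD24 for RUNX2 in all libraries (log2 fold change -0.41 ± 0.15, limma adjusted p = 0.057). Over all genes the median of this fit was -0.10, and TMM scaling shifted the log2 values by a median of 0.09. In this comparison the replicate numbers paired the libraries. With the replicate number as a block, also without TMM scaling, the limma adjusted p was 0.0098. Against Nutlin, N+PD24 gave -0.25 ± 0.11 (limma adjusted p = 0.12), and 0.038 with the block. RUNX2 overlaps SUPT3H on the opposite strand, which had its own counts in the files.

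SP7 (chr12:53720359-53739099 on GRCh37, minus strand) had 1 count in each DMSO library, 2 to 3 with Nutlin, 0 in all PD24 libraries and 0 to 1 in PD30. N+PD24 replicate 2 held 9 counts, the highest value, beside 1 and 3 counts in the other N+PD24 libraries. A count of 0 allows up to 3 counts, which in the PD24 libraries is 0.0746 to 0.126 CPM. These limits cover counting error only, and differences of SP7 between groups were not tested.

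ALPL (chr1:21835890-21904903 on GRCh37, plus strand, 12 exons), the phosphatase of mineralization, had a wide spread between replicates. The DMSO libraries were at 81.7, 71.7 and 19.2 CPM and the Nutlin libraries at 92.6, 112 and 36.3 CPM. PD24 gave 41.4, 35.7 and 11.7 CPM, and PD30 gave 29.8, 34.8 and 10.6 CPM. In each group, replicate 3 was far below the other 2.

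The combinations repeated this. N+PD24 libraries were at 38.8, 37.8 and 18.8 CPM and N+PD30 libraries at 64.0, 38.2 and 11.4 CPM. In all 6 groups replicate 3 was the lowest, at 0.224 to 0.490 of the mean of the other 2 libraries. The group means ran from 25.1 CPM in PD30 to 80.2 CPM with Nutlin, and every pair of neighbours in this order overlapped.

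Against this spread, N+PD24 against Nutlin was the comparison in which ALPL was called, with a log2 fold change of -1.23 ± 0.41 (limma adjusted p = 0.045). The groups overlapped, but each N+PD24 library had 0.338 to 0.517 of the CPM of the same-numbered Nutlin library. Without Nutlin replicate 1 or 2, or N+PD24 replicate 2 or 3, the limma adjusted p rose to between 0.070 and 0.16, and without the filter it was 0.075. The means also differed in the same direction in PD24 against DMSO (log2 fold change -0.94, edgeR adjusted p = 0.21), PD30 against DMSO (-1.21, 0.085) and N+PD30 against Nutlin (-1.13, 0.10), none of them called. These fits carry the offset of replicate 3 as spread. Between same-numbered libraries the ALPL ratios were all below 1, at 0.497 to 0.607, 0.365 to 0.552 and 0.315 to 0.691 in these comparisons.

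Leaving out a single library changed the call in those 3 comparisons. Without DMSO replicate 3, ALPL was called in PD24 against DMSO (log2 fold change -1.36, edgeR adjusted p = 0.038) and in PD30 against DMSO (-1.63, 0.0037), and without the filter PD30 against DMSO had an adjusted p of 0.047. Without Nutlin replicate 3 or N+PD30 replicate 1, it was called in N+PD30 against Nutlin (edgeR adjusted p = 0.044 and 0.019). Nutlin against DMSO gave 0.62 with a 95% interval from -0.49 to 1.72 (edgeR adjusted p = 0.31). The genes whose log2(CPM + 1) was most like that of ALPL over the 18 libraries, among 14460 genes, were PCOLCE (Pearson r = 0.933), C1R (0.923) and FNDC1 (0.919).

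**Figure D3:**
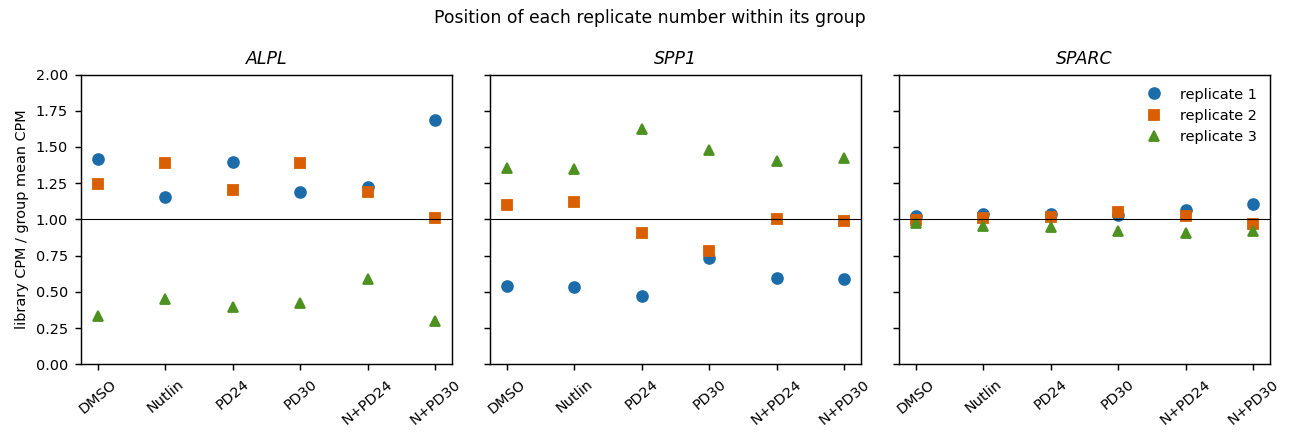
CPM of each library divided by the mean CPM of its group (y axis) for ALPL, SPP1 and SPARC in 6 groups (x axis), with 1 symbol per replicate number. Replicate 3 is lowest for ALPL and SPARC and highest for SPP1 in all 6 groups.

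SPARC (chr5:151040657-151066536 on GRCh37, minus strand, 10 exons), a collagen-binding matrix protein, was the most abundant of the 9 genes and the most regular. DMSO libraries lay between 1398 and 1466 CPM and Nutlin libraries between 1707 and 1860 CPM, a log2 fold change of 0.45 ± 0.09 (edgeR adjusted p = 0.0017). PD24 libraries lay between 2106 and 2309 CPM (0.66 ± 0.08 against DMSO, edgeR adjusted p = 0.00037). PD30 libraries lay between 2229 and 2547 CPM (0.75 ± 0.08, edgeR adjusted p = 5.4e-05). Each of these 3 groups lay entirely above DMSO.

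The highest group means of SPARC were those of the combinations, 2567 ± 246 CPM in N+PD30 and 2719 ± 224 CPM in N+PD24. N+PD30 against Nutlin gave a log2 fold change of 0.48 ± 0.13 (edgeR adjusted p = 0.012) and N+PD24 against Nutlin 0.60 ± 0.10 (limma adjusted p = 0.0020). Adding Nutlin to PD24 gave 0.28 ± 0.11 (limma adjusted p = 0.064), which became 0.016 with the replicate block, 0.017 by edgeR on the recovered reads and 0.040 after TMM scaling. Without N+PD24 replicate 3 the limma adjusted p was 0.037. Adding Nutlin to PD30 gave 0.18, with a 95% interval from -0.09 to 0.45 (edgeR adjusted p = 0.32).

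Within each group, replicate 3 was the lowest library for SPARC, at 0.868 to 0.967 of the mean of the other 2. The gene overlaps the antisense RNA CLMAT3, which had no row in the files. The genes most like SPARC over the 18 libraries were ATP6V0E1 (r = 0.968), EPHX2 (0.967) and PCSK2 (0.966).

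SPP1 (chr4:88896819-88904684 on GRCh37, plus strand, 7 exons), a phosphoprotein of bone matrix that cells also attach to, was called higher in each of the 4 comparisons of PD0332991 with its absence. DMSO libraries were at 5.70, 11.5 and 14.2 CPM and Nutlin libraries at 6.39, 13.4 and 16.2 CPM. PD24 gave 14.7, 28.6 and 51.1 CPM, and PD30 gave 17.2, 18.3 and 34.6 CPM. The PD24 and PD30 libraries all lay above the DMSO libraries, while Nutlin and DMSO overlapped.

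The log2 fold change of SPP1 was 1.61 ± 0.44 in PD24 against DMSO (edgeR adjusted p = 0.018) and 1.15 ± 0.34 in PD30 against DMSO (edgeR adjusted p = 0.021). Both calls were lost without replicate 3 of the PD0332991 group (log2 fold change 1.09, edgeR adjusted p = 0.053, without PD24 replicate 3, and 0.76, 0.078, without PD30 replicate 3). Nutlin against DMSO gave 0.31 with a 95% interval from -0.48 to 1.11 (edgeR adjusted p = 0.48).

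In the combinations, SPP1 was at 23.6, 39.7 and 55.5 CPM in N+PD24 and at 13.4, 22.6 and 32.4 CPM in N+PD30. N+PD24 lay above Nutlin in all libraries, with a log2 fold change of 1.65 ± 0.36 (limma adjusted p = 0.0076). N+PD30 overlapped Nutlin and gave 0.89 ± 0.33 (edgeR adjusted p = 0.045), a call that was lost without Nutlin replicate 1 or 2 or N+PD30 replicate 2 or 3 (edgeR adjusted p = 0.067 to 0.14). N+PD30 against N+PD24 gave -0.77 (95% interval -1.55 to -0.00, limma adjusted p = 0.11), and passed without N+PD24 replicate 1 (0.039) or N+PD30 replicate 3 (0.036). N+PD24 against PD24 gave 0.41 ± 0.42 (limma adjusted p = 0.48), and 0.019 with the replicate block.

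The replicate pattern of SPP1 ran against that of ALPL. In all 6 groups replicate 1 was lowest, at 0.370 to 0.651 of the mean of the other 2 libraries, and replicate 3 was highest, at 1.64 to 2.36 of it. Over the 18 libraries the Pearson correlation of ALPL with SPP1 on the log2(CPM + 1) scale was -0.767, and it rests on libraries that share replicate numbers and treatments. Among the 15 pairs of the 6 genes, the highest was that of DLX5 with TNFRSF11B, at 0.629. The genes most like SPP1 were OCIAD2 (r = 0.948), GRIA1 (0.943) and LCP1 (0.932).

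IBSP (chr4:88720706-88733587 on GRCh37, plus strand) lies 163231 bases before SPP1 in a cluster of genes for mineral-binding phosphoproteins, yet it reached 4 counts at most, in Nutlin replicate 1. The rest of this cluster was as low. Over all 18 libraries together, DSPP had 2 counts, DMP1 24, IBSP 15 and MEPE 41, against 12637 for SPP1. SPP1 was thus the expressed member among these cluster genes, and other genes nearby were not read. SPP1 itself overlaps a lncRNA on the opposite strand.

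BGLAP (chr1:156211975-156213108 on GRCh37, plus strand), the osteocalcin gene, had 0 counts in 13 of the 18 libraries and 6 at most, in Nutlin replicate 3. Its exons are shared with the readthrough gene PMF1-BGLAP, which had 0 counts in all 18 libraries, and the union mode of the counting leaves out reads that fit 2 genes. The low count of BGLAP is therefore uncertain, because reads from shared exons may not have been assigned. PMF1, which lies before BGLAP on the same strand, had 76 to 351 counts per library.

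TNFRSF11B (chr8:119935796-119964124 on GRCh37, minus strand, 5 exons), the decoy receptor for the osteoclast factor RANKL, was lowest with Nutlin. DMSO libraries were at 6.06, 7.32 and 7.18 CPM and Nutlin libraries at 3.24, 3.43 and 2.51 CPM. The groups did not overlap, and the log2 fold change was -1.03 ± 0.18 (edgeR adjusted p = 0.0010). PD24 (5.99 to 6.59 CPM) and PD30 (5.14 to 6.73 CPM) overlapped DMSO, with log2 fold changes of -0.11 (95% interval -0.44 to 0.21) and -0.18 (-0.53 to 0.18).

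N+PD24 lay between these levels, at 3.97 to 4.88 CPM. N+PD30, at 3.29 to 5.19 CPM, overlapped both Nutlin and PD30. N+PD24 against PD24 gave a log2(CPM + 1) difference of -0.44 ± 0.14 (limma adjusted p = 0.031), with no overlap of the libraries. This call was lost after TMM scaling (limma adjusted p = 0.090), by edgeR on the recovered reads (0.12), without the filter (0.068) and without any 1 of 5 libraries, namely the 3 of PD24 and N+PD24 replicates 2 and 3 (0.056 to 0.11). N+PD30 against PD30 gave -0.51 ± 0.22 (edgeR adjusted p = 0.14), and 0.047 with the replicate block, though the pairing of libraries was weak there.

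Against Nutlin, TNFRSF11B had a log2(CPM + 1) difference of 0.40 ± 0.15 in N+PD24 (limma adjusted p = 0.063, and 0.015 with the block) and a log2 fold change of 0.35 ± 0.25 in N+PD30 (edgeR adjusted p = 0.27). The genes most like TNFRSF11B over the 18 libraries were SYBU (r = 0.928), DNAJC19 (0.915) and TRO (0.915). For DLX5 they were PPPDE2 (0.944), FAM86C1 (0.937) and FBLIM1 (0.937), and for RUNX2 LTN1 (0.962), USP24 (0.959) and MED1 (0.956). These correlations describe 18 libraries that share 6 treatments.

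The surroundings of the lineage genes were followed in 6 lists with 145 genes other than the 9: transcription factors and partners, BMP pathway, WNT pathway, mineral and matrix genes, osteocyte genes, and signals between osteoblasts and osteoclasts. Nutlin against DMSO raised 34 and lowered 35 of the 134 tested, 51.5% beside 54.6% of all genes. The mineral and matrix list rose more often than it fell, with 18 higher and 2 lower of 39 and a median log2 fold change of 0.36 beside 0.03 over all genes. With scaling by total counts, 13 of these were higher and 3 lower. The transcription factors fell more often, with 2 higher and 9 lower of 17. Over all 15766 genes tested, 4198 were higher and 4416 lower.

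Of the genes named by rule in this comparison, GDF5, a growth factor of joints, stood at 0.869 ± 0.0723 CPM with Nutlin and 0.0318 ± 0.0304 CPM in DMSO (edgeR adjusted p = 4.8e-05). ASPN (asporin), a matrix proteoglycan, stood at 0.671 ± 0.0393 and 0.0755 ± 0.0746 CPM (0.00040). In DMSO both had only a few counts per library, so no fold is given. Both passed the filter on low values only through the Nutlin libraries and were named for their rise there. Their adjusted p-values are therefore no separate support for these rises. DLX6, the neighbour and paralog of DLX5, was at 0.832 ± 0.124 CPM with Nutlin and 4.0 ± 0.345 CPM in DMSO (log2 fold change -2.13, edgeR adjusted p = 2.5e-05). PTGER4, a prostaglandin E2 receptor, was at 4.66 ± 0.727 and 16.0 ± 2.27 CPM (-1.66, 2.9e-05). DLX6 overlaps the antisense RNA DLX6-AS1, and 14 of the 25 list genes named by rule overlap another gene, so that without known strandedness some reads may belong to the partner.

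PD24 and PD30 differed in these lists. PD24 against DMSO raised 36 and lowered 21 of 131 (43.5% beside 38.3% of all genes), whereas PD30 against DMSO raised 23 and lowered 50 of 130 (56.2% beside 48.3%). PD30 against PD24, tested directly, raised 7 and lowered 41 of 130 (36.9% beside 25.2%), with a median log2 fold change of -0.25 beside -0.02 over all genes. The BMP pathway had 1 gene higher and 11 lower of 24 in this comparison, the transcription factors 1 and 8 of 17, and the osteoblast to osteoclast signals 1 and 10 of 26. The WNT pathway had 2 and 5 of 21, the mineral and matrix genes 2 and 7 of 36, and the osteocyte genes 0 and 1 of 7. Over all 15171 genes tested, 1853 were higher and 1963 lower.

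GREM1, a secreted BMP antagonist, led this fall, with 10.1 ± 2.08 CPM in PD30 and 47.9 ± 15.8 CPM in PD24 (log2 fold change -2.29, edgeR adjusted p = 0.00047). BMP6, a ligand of the pathway, was at 0.794 ± 0.123 and 3.57 ± 0.720 CPM (-2.20, 0.00051). The stress-responsive transcription factor ATF4 rose, from 145 ± 14.7 CPM in PD24 to 318 ± 56.7 CPM in PD30 (1.09, 0.00097), and so did WISP1, from 3.05 ± 0.800 to 6.24 ± 0.233 CPM (1.00, 0.0082). Against DMSO, the cytokine LIF was higher in PD24 (113 ± 12.2 against 43.7 ± 3.09 CPM, 1.40, 1.4e-05) and in PD30 (102 ± 7.50 CPM, 1.21, 6.2e-06).

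PD24 also raised PHOSPHO1, a phosphatase of matrix vesicles (2.90 ± 0.982 against 1.12 ± 0.196 CPM, log2 fold change 1.38, edgeR adjusted p = 0.0062). It lowered WISP1 (-1.40, 0.0013) and SEMA3A (-1.01, 0.0022). PD30 raised the phosphate transporter SLC20A2 (123 ± 4.71 against 43.7 ± 2.81 CPM, 1.47, 7.3e-07). It lowered TNFRSF11A, the receptor for RANKL (0.505 ± 0.219 against 2.43 ± 0.311 CPM, -2.30, 0.00016), and the growth factor receptor FGFR3 (-2.12, 0.00014).

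**Figure D4:**
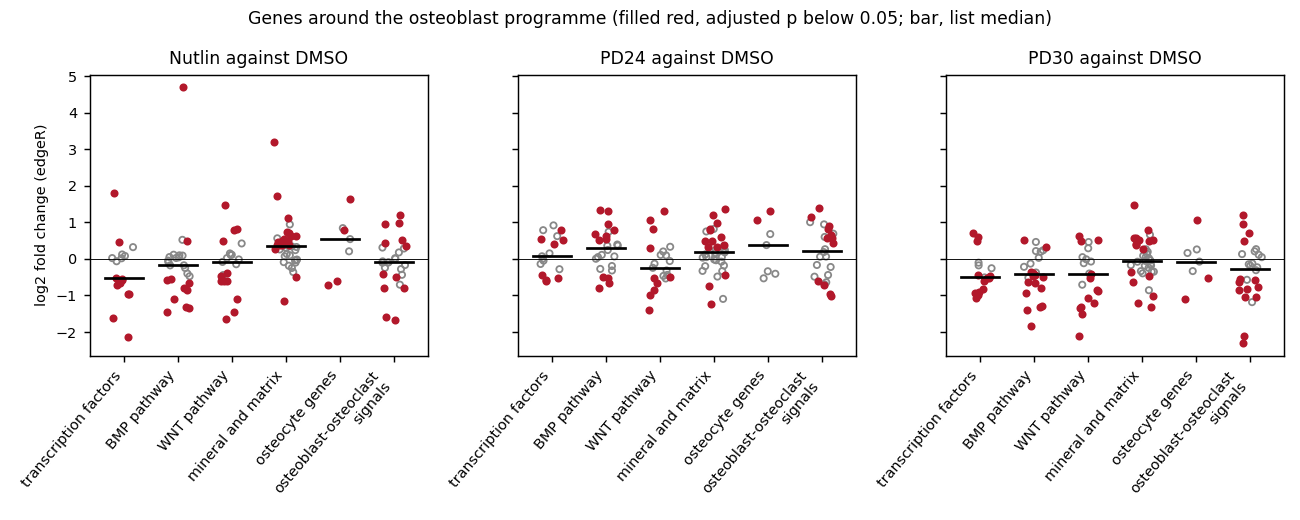
Log2 fold changes by edgeR (y axis) of the tested genes of 6 lists (x axis) for Nutlin, PD24 and PD30 against DMSO, with filled red points for an adjusted p below 0.05 and bars for list medians. The mineral and matrix list has a median of 0.36 with Nutlin, and the transcription factor list a median of -0.51 in PD30.

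When Nutlin was added to PD24, 10 list genes were higher and 32 lower of 131 (32.1% beside 38.4% of all genes), and over all 14897 genes 1640 were higher and 4078 lower. TMM scaling gave 13 and 30 of the list genes, and 2154 and 3338 of all genes. The BMP pathway had 0 higher and 13 lower of 24, with a median log2 difference of -0.47 beside -0.10 over all genes, and 0 and 12 after TMM scaling. TWIST1, a factor that holds back osteoblast maturation, was at 5.5 ± 0.816 CPM in N+PD24 and 19.8 ± 3.16 CPM in PD24 (-1.67, limma adjusted p = 0.00013). PTGER4 was again lower (5.73 ± 1.15 against 19.0 ± 0.172 CPM, -1.58, 0.00013), while DLX3 (8.02 ± 2.73 against 3.06 ± 1.68 CPM, 1.21, 0.026) and POSTN (1.38 ± 0.398 against 0.467 ± 0.300 CPM, 0.71, 0.015) were higher. For POSTN, edgeR on the recovered reads gave a log2 fold change of 1.64. The call of DLX3 was lost without PD24 replicate 1 or N+PD24 replicate 2 or 3 (limma adjusted p = 0.056 to 0.088) and that of POSTN without N+PD24 replicate 2 (0.064).

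Adding Nutlin to PD30 called 10 higher and 7 lower of 129 (13.2% beside 14.5%), a balance that turned to 8 and 17 with scaling by total counts. FOSL1 (log2 fold change 1.18, edgeR adjusted p = 0.0072) and ID1 (1.02, 0.042) led the rises, and GREM1 (-0.93, 0.024) and PRRX1 (-0.87, 0.028) the falls. The call of ID1 was lost without any 1 of 5 libraries, all but N+PD30 replicate 3 (edgeR adjusted p = 0.070 to 0.11). That of GREM1 was lost without PD30 replicate 1 or 3 or N+PD30 replicate 2 (0.069 to 0.099), and that of PRRX1 without any PD30 library or N+PD30 replicate 2 (0.069 to 0.12).

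Compared with Nutlin alone, N+PD30 raised 20 and lowered 44 of 132 list genes (48.5% beside 49%). ATF4 was at 385 ± 80.4 CPM in N+PD30 and 106 ± 5.27 CPM with Nutlin (log2 fold change 1.81, edgeR adjusted p = 4.3e-06), and LIF rose by 1.63 (5.3e-05). GDF5 (0.0672 ± 0.116 against 0.869 ± 0.0723 CPM, edgeR adjusted p = 0.0017) and ASPN (0.137 ± 0.161 against 0.671 ± 0.0393 CPM, 0.0058) were lower. Both genes had led the rises in Nutlin against DMSO, and both comparisons use the same Nutlin libraries. The falls are therefore not independent of those rises. Here too both genes passed the filter only through the Nutlin libraries. N+PD24 raised 26 and lowered 23 of 133 (36.8% beside 35.3%), with EFNB2 (1.51, limma adjusted p = 0.00040) and LIF (1.42, 0.0028) at one end and DCN (-1.47, 0.014, and 0.052 without Nutlin replicate 2) and AXIN2 (1.23 ± 0.287 against 4.43 ± 0.224 CPM, -1.29, 0.00020) at the other. N+PD30 against N+PD24 raised 10 and lowered 31 of 131 (31.3% beside 33.3%), led by ATF4 (1.82, limma adjusted p = 0.00030), EPHB4 (1.22, 0.0010), DLX3 (0.949 ± 0.139 against 8.02 ± 2.73 CPM, -2.16, 0.00042) and IL11 (-2.12, 0.0017). For DLX3, edgeR on the recovered reads gave a log2 fold change of -3.17. In the same comparison, TMM scaling gave 9 higher and 40 lower of the 131 list genes. Over all genes, 3142 were higher and 1834 lower in the main fit, and 2553 and 2318 after TMM scaling.

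Marker lists of other cell types were read in the same libraries. Markers with a median of at least 1 CPM were 6 of 10 for chondrocytes, 5 of 8 for adipocytes, 7 of 8 for osteoclasts and macrophages, 1 of 8 for skeletal muscle and 4 of 8 for epithelium, so the 6 of 9 of the osteoblast lineage did not stand apart by this count. The 10 chondrocyte markers summed to 113 to 131 CPM in DMSO and 76.7 to 81.8 CPM in N+PD24. Their highest medians were those of SOX9 (42.9 CPM), SOX6 (28.03 CPM) and the cartilage matrix gene MATN3 (17.95 CPM). SOX5 was at a median of 4.17, COL11A2 at 2.09 and COL2A1 at 1.08 CPM. ACAN (0.469 CPM), COMP, COL9A1 and COL10A1 had medians below 1 CPM. The 8 adipocyte markers summed to 104 to 110 CPM in DMSO and 34.6 to 41.7 CPM in N+PD30, with PPARG at a median of 30.6, LPL at 7.46 and FABP4 at 5.72 CPM but PLIN1 at 0.504 CPM or less. LPL alone ranged from 3.76 to 70.6 CPM over the 18 libraries, beside 22.5 to 34.7 CPM for PPARG. The sums therefore do not show that the adipocyte markers fell together. The 8 osteoclast and macrophage markers moved the other way, from 32.6 to 42.9 CPM in DMSO to 66.1 to 84.5 CPM in N+PD30, mostly as CD68 and ACP5, while the leukocyte marker PTPRC stayed at or below 0.492 CPM. Skeletal muscle markers summed to 9.69 CPM at most, with MYOD1 and MYOG at a median of 0. Epithelial markers summed to 115 to 268 CPM, chiefly KRT18, with EPCAM at or below 0.852 CPM. The summed level of the 9 osteoblast lineage genes, which is mostly SPARC, was 1473 to 1592 CPM in DMSO and 2446 to 2992 CPM in the 2 combinations. The part of other cell types in these results was not tested.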

How the data were processed

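RNA of SJSA cells was sequenced in 18 libraries (single-end reads of 50 bases, TruSeq RNA kit). Alignment by the authors used TopHat and Bowtie 2 on hg19. The count tables they deposited came from HTSeq 0.6.0, run per gene symbol in union mode for reverse-stranded reads, although the strandedness of the kit is not stated. For N+PD24 the authors deposited a normalized signal, the counts divided by 1 size factor per library. Multiplied back, 100% of its values were whole within 0.001, and these recovered reads gave the counts and library totals. CPM of N+PD24 was the deposited signal scaled to its own total. Size-factor tables that repeat libraries and the authors' own comparison of Nutlin with DMSO (fold changes and p-values) were not used.

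The 9 genes and the lists were chosen with earlier results of these data known. Where both groups had counts, they were compared with edgeR 4.0.16 (quasi-likelihood test, TMM, filterByExpr, R 4.3.3), and comparisons with N+PD24 with limma 3.58.1 on log2(CPM + 1), for genes at 0.5 CPM or more in at least 3 libraries. Fold changes of edgeR are thus relative to TMM scaling and CPM to library totals. Interactions used 12 libraries. Adjusted p-values are Benjamini-Hochberg over all genes tested, with a threshold of 0.05. Intervals are 95%. The tests were tried on simulated counts with known changes.

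Of the list genes, the 2 largest rises and 2 largest falls per comparison were named, among called genes whose groups did not overlap. Likeness used genes at 1 CPM or more in at least 3 libraries. Alternatives were RLE scaling, DESeq2 1.42.0, scaling by total counts (chosen after seeing the data), TMM scaling, edgeR on recovered reads, a pseudocount of 0.5, no filter, a replicate block and leaving out each library. The replicate numbers come from the sample titles. Deviations of same-numbered libraries from their group means correlated at over 0.1 in every pair for PD30 with PD24 (lowest 0.31), N+PD30 with PD30 (0.20), N+PD24 with Nutlin (0.45) and N+PD24 with PD24 (0.22). There the numbers were taken to pair the libraries. For N+PD30 with PD30 this pairing was weak, as libraries of different number correlated at up to 0.46. In it 4 libraries correlated best with their own number, beside 6 for PD30 with PD24. The main fits have no block, and the blocked value is given where it changes a call. In the other comparisons the lowest correlation was between -0.29 and 0.08. Positions are from GENCODE on GRCh37. The columns that the DMSO and Nutlin groups have in 2 tables each were identical. Of the 23368 rows, 28 carried date-like names.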

Additional observations from a re-analysis of the deposited data

Results flagged for a closer look

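The effect of Nutlin differed with and without PD0332991 for the 4 response genes, each with at least 1 schedule, and for some list genes, by the interaction term over 12 libraries. Of the 6 lineage genes tested, 0 passed. Over all genes, 19.8% were called in the interaction with PD30 and 1.5% in that with PD24. The list genes given below, except TWIST1, had been named for large changes in comparisons that share libraries with the interaction. Their interactions are therefore not independent of that choice. The values are interactions on the log2 scale, where a positive value means that Nutlin raised the gene more, or lowered it less, in the presence of PD0332991. With PD30, they were -0.68 for MDM2 (edgeR adjusted p = 0.033), 1.07 for CCNA2 (0.0011), 1.71 for DLX6 (0.0012), 1.07 for PTGER4 (0.011), 1.37 for ATF4 (0.0011), 1.2 for FOSL1 (0.011), -1.62 for DLX3 (0.0043), 1.31 for TWIST1 (0.0019) and 1.12 for EPHB4 (0.0067). With PD24, they were 1.12 for CDKN1A (limma adjusted p = 0.012), 1.17 for CCNA2 (0.0031) and 1.11 for MKI67 (0.038), on the log2(CPM + 1) scale. CCNA2 and MKI67 were at a few CPM wherever PD0332991 was given, as given in the report for PD24 and PD30. Groups of 3 libraries are too small for a test of single outlying libraries.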

How the results depend on the processing

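RLE scaling, DESeq2, scaling by total counts, TMM scaling, the pseudocount of 0.5 and edgeR on recovered reads left the number of the 9 genes called within 1.5 times of the values in the report. Without the filter, N+PD24 against PD24 called 1 instead of 2. The replicate block called 5 in N+PD24 against PD24, 6 instead of 4 in N+PD24 against Nutlin, 1 instead of 0 in N+PD30 against PD30, 1 instead of 0 in N+PD30 against N+PD24 (SPP1, limma adjusted p = 0.0032) and 1 instead of 0 in the interaction with PD30 (DLX5, 1.2, edgeR adjusted p = 0.048). Where the numbers did not pair the libraries over all genes, the block also called ALPL in Nutlin against DMSO (0.70, edgeR adjusted p = 0.0030), PD24 against DMSO (-0.88, 0.00016), PD30 against DMSO (-1.14, 7.2e-05) and N+PD30 against Nutlin (-1.28, 0.0019). For ALPL itself, replicate 3 was the lowest library in all 6 groups. In Nutlin against DMSO 2 of the 6 libraries correlated best with their own number, in PD24 and PD30 against DMSO 4 each, in N+PD30 against Nutlin 3 and in N+PD30 against N+PD24 4. Beside the calls given here and in the report, the block changed no other call of the 9 genes.

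Leaving out 1 library at a time, the number called ranged from 2 to 4 in PD24 against DMSO, PD30 against DMSO and N+PD30 against Nutlin, from 0 to 1 in PD30 against PD24, N+PD30 against N+PD24 and the interaction with PD30, from 3 to 4 in N+PD24 against Nutlin and from 1 to 2 in N+PD24 against PD24. It stayed at 3 in Nutlin against DMSO and at 0 in N+PD30 against PD30 and the interaction with PD24. RUNX2 in N+PD24 against PD24 passed without PD24 replicate 2 (limma adjusted p = 0.044).

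Only log2 fold changes that were not called changed sign: SPP1 in N+PD30 against PD30 (-0.027 with total counts), ALPL in N+PD30 against N+PD24 (-0.077 with TMM scaling) and in the interaction with PD30 (-0.081 with the block), RUNX2 in that interaction (0.0028 without the filter) and DLX5 in the interaction with PD24 (0.044 by edgeR). Leave-one-out ranges that crossed 0 were, for RUNX2, -0.12 to 0.033 (PD30 against DMSO), -0.15 to 0.053 (N+PD30 against Nutlin), -0.088 to 0.12 (interaction with PD30) and -0.15 to 0.072 (with PD24). For ALPL they were -0.67 to 0.10 (PD30 against PD24), -0.34 to 0.54 (N+PD24 against PD24), -0.50 to 0.69 (N+PD30 against N+PD24), -0.49 to 0.58 (interaction with PD30) and -0.90 to 0.29 (with PD24). For SPP1 they were -0.85 to 0.054 (PD30 against PD24), -0.24 to 0.47 (N+PD30 against PD30), -0.031 to 0.83 (N+PD24 against PD24), -0.52 to 0.20 (interaction with PD30) and -0.20 to 0.66 (with PD24). The rest were TNFRSF11B in PD30 against PD24 (-0.15 to 0.057) and N+PD30 against N+PD24 (-0.24 to 0.021), DLX5 in N+PD30 against PD30 (-0.62 to 0.0024) and SPARC in the interaction with PD24 (-0.088 to 0.029). Causes were not tested. Of the named list genes, 17 calls were lost when 1 library was left out, for ID1, GREM1, PRRX1, DLX3, POSTN and DCN, as given in the report.

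Over all genes, the block gave 6107 calls instead of 3816 in PD30 against PD24, 4375 instead of 2183 in N+PD30 against PD30, 8388 instead of 5382 in N+PD24 against Nutlin and 455 instead of 235 in the interaction with PD24, where edgeR on recovered reads gave 116. Leaving out a library gave as few as 583 and as many as 3384 in N+PD30 against PD30, 2178 in PD30 against PD24, 3580 instead of 5718 in N+PD24 against PD24, 2801 instead of 4976 in N+PD30 against N+PD24 and 113 in the interaction with PD24. Other scaling moved the split of higher and lower calls in Nutlin against DMSO from 4198 and 4416 to 3151 and 5439, in N+PD30 against PD30 from 1333 and 850 to 1107 and 1421, in N+PD24 against PD24 from 1640 and 4078 to 2154 and 3338, and in N+PD30 against N+PD24 from 3142 and 1834 to 2553 and 2318. The mean levels of the 9 genes in the 6 groups moved by less than 1 SD under TMM scaling.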
